A study of Homo sapiens with 23 samples.

Results

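The genes described here are the YY1 family of zinc finger factors (YY1, YY2 and ZFP42), the insulator factor CTCF, and the cohesin complex with its loader (RAD21, SMC1A, SMC3, STAG1, STAG2 and NIPBL). They were taken by name, 10 of the 36085 genes to which transcripts of the RNA files could be assigned, and all 10 were among the 16371 genes with enough counts to be tested. The cells were NCCITs, a human embryonal carcinoma line with properties of pluripotent cells. In SCi-NCCITs these cells carry a doxycycline-inducible dCas9-KRAB, a nuclease-dead Cas9 fused to a repressor domain. They also carry 2 sgRNAs against SVAs, a family of hominoid transposable elements. Per the paper, the sgRNAs have targets in LTR5Hs as well, another family of transposable elements. RNA was measured after 72 hours of 2 µg/mL doxycycline in 3 libraries and without it in 3 more, all from SCi-NCCITs. YY1 ChIP-seq had 2 libraries per condition, OCT4 ChIP-seq 1, and H3K9me3 ChIP-seq 2, with a further H3K9me3 library of NCCITs, labelled without the constructs. Both conditions of SCi-NCCITs carried dCas9-KRAB and the sgRNAs, came from selected stable transfectants and were kept under selection. No library used here came from doxycycline-treated cells without the constructs, so an effect of doxycycline itself and one of the induced repressor cannot be told apart. The labels do not say whether libraries of a condition came from separate cultures, and p-values then measure only the spread between these libraries. In bulk RNA, fewer cells of a type and less RNA per cell cannot be told apart.

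YY1 is a widely expressed factor that binds promoters and enhancers at a short motif with the core ATGG, and it has been described as a protein that brings promoters and enhancers together. YY2 and ZFP42, also known as REX1, arose from YY1-related sequences by retroposition in mammals, and ZFP42 is a common marker of pluripotent cells. CTCF binds its own long motif and stops cohesin, the ring of SMC1A, SMC3 and RAD21 with a STAG subunit, as the ring extrudes a DNA loop after loading by NIPBL.

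Sequences under YY1 peaks that held a YY1 motif are shown first, since the number and place of motifs differed among the members. YY1 had the strongest peak of the 10 genes, and it lay over its own gene, chr14:100704635-100749125 of hg19 on the plus strand. Its summit fell in intron 1 of transcript YY1-201, between 95 and 125 bp downstream of the nearest annotated start site in the 4 libraries. This stretch of intron, chr14:100706302-100706454 on the plus strand, holds 4 matches to the YY1 motif, which was searched as AANATGGC and as GCCATNTT on the other strand. Capitals mark the matches.

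YY1 intron 1: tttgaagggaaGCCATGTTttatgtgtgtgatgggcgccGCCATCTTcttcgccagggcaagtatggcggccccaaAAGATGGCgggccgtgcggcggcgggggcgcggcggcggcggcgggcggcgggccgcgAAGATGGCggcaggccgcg

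Windows of 300 bases around the summit of the strongest promoter peak held at least 1 match at 25.7 to 27.9% of the protein-coding genes with such a peak, over the 4 libraries. Among the strongest 10% of such peaks the share was 78.8 to 83.8%. Windows with 3 or more matches made up 0.142 to 0.162% in each library, and the YY1 window held 4 in every library. In the first library without doxycycline the 4 matches lay at -32, -4, 33 and 91 bp from the summit.

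CTCF, RAD21 and SMC3 each had 1 match within their windows in all 4 libraries, at most 23 bp from the summit. The CTCF match lies in exon 1 of CTCF-201, and the SMC3 match lies just upstream of the start of SMC3-201. STAG1 had a match only where its strongest summit lay upstream of the start, which was the case in the second library of each condition. The 30 bases around 3 of these matches are shown on the strand of the gene, from chr16:67596445-67596474, chr10:112327434-112327463 and chr3:136471567-136471596. The bases in capitals are alike because the motif was searched for. Likeness outside them was not compared with other promoters.

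CTCF exon 1: accgcgccgccGCCATTTTgtgtctgagcc

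SMC3 start: ccacgagcgccGCCATTTTgtttggctgag

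STAG1 upstream: aagaagctccaAAAATGGCgggcggcaact

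No match was found at the summits of NIPBL, SMC1A, STAG2 and ZFP42. That says only that these letters are absent from these windows. As a description of the motif itself, AANATGGC stood in 6.73% of 20162 promoters, from 250 bases before to 50 bases from the start. The share was 9.29% for promoters with a YY1 peak and 2.94% for those without one.

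The RNA of the 10 genes spanned a wide range of levels. Levels between genes were compared as TPM, which corrects for transcript length, over the 3 libraries without doxycycline. SMC1A was highest at 138 ± 11.7 TPM (SD, n = 3), followed by STAG2 at 106 ± 14.0 TPM and RAD21 at 93.4 ± 4.50 TPM, and the ranges of STAG2 and RAD21 overlapped. YY1 at 46.2 ± 1.83 TPM and SMC3 at 43.6 ± 3.09 TPM also overlapped in their ranges. ZFP42 followed at 27.9 ± 0.116 TPM and CTCF at 25.3 ± 0.407 TPM, with no overlap. NIPBL was at 21.8 ± 3.01 TPM, STAG1 at 5.49 ± 0.704 TPM and YY2 at 0.492 ± 0.112 TPM. Of the cohesin subunits that vary between complexes, STAG1 made up 4.04 to 6.06% of the summed STAG1 and STAG2 TPM without doxycycline and 4.25 to 4.92% with it. Over the main transcripts alone, STAG1-202 made up 5.72, 5.49 and 5.33% of the summed STAG1-202 and STAG2-204 TPM without doxycycline and 4.67, 4.36 and 4.51% with it. On this measure the conditions did not overlap, while over whole genes they did. Levels of single transcripts are estimates, and 27.0% of the words of 31 bases in STAG1-202 also occur in transcripts of the gene PCCB. The top place of SMC1A rests in part on short transcripts. SMC1A-205 (838 nt) and SMC1A-203 (880 nt) were estimated at 30.7 to 40.0 and 30.8 to 35.4 TPM without doxycycline, against 60.4 to 70.8 TPM for the full-length SMC1A-201. In STAG2 the 864 nt transcript STAG2-218 was estimated at 34.5 TPM in the first library without doxycycline and at 0 in the other two.

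After induction the RNA of 4 of the 10 genes was lower, and the fitted change of all 10 was below 0 on the log2 scale. For YY2 it was -0.0014 ± 0.26 (SE), which shows no direction. Of the 16371 genes tested, 8249 had a fitted change below 0. ZFP42, CTCF, RAD21 and STAG1 passed an adjusted p of 0.05 in edgeR's quasi-likelihood test, all as lower with doxycycline. None was called higher. Among all genes tested, 8.48% were called lower and 8.97% higher, 17.5% in all. The median log2 fold change was -0.18 over the 10 genes and -0.0025 over all genes tested. The CPM (estimated counts scaled to a common library size) of the 2 conditions did not overlap for 5 of the 10, the 4 named and YY1, all lower with doxycycline, against 17.8% of all genes tested that were lower without overlap and 19.2% that were higher. CPM does not correct for transcript length. The libraries held 14683468, 31905915 and 43443469 assigned counts without doxycycline and 44680610, 47862394 and 46639141 with it.

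**Figure D1:**
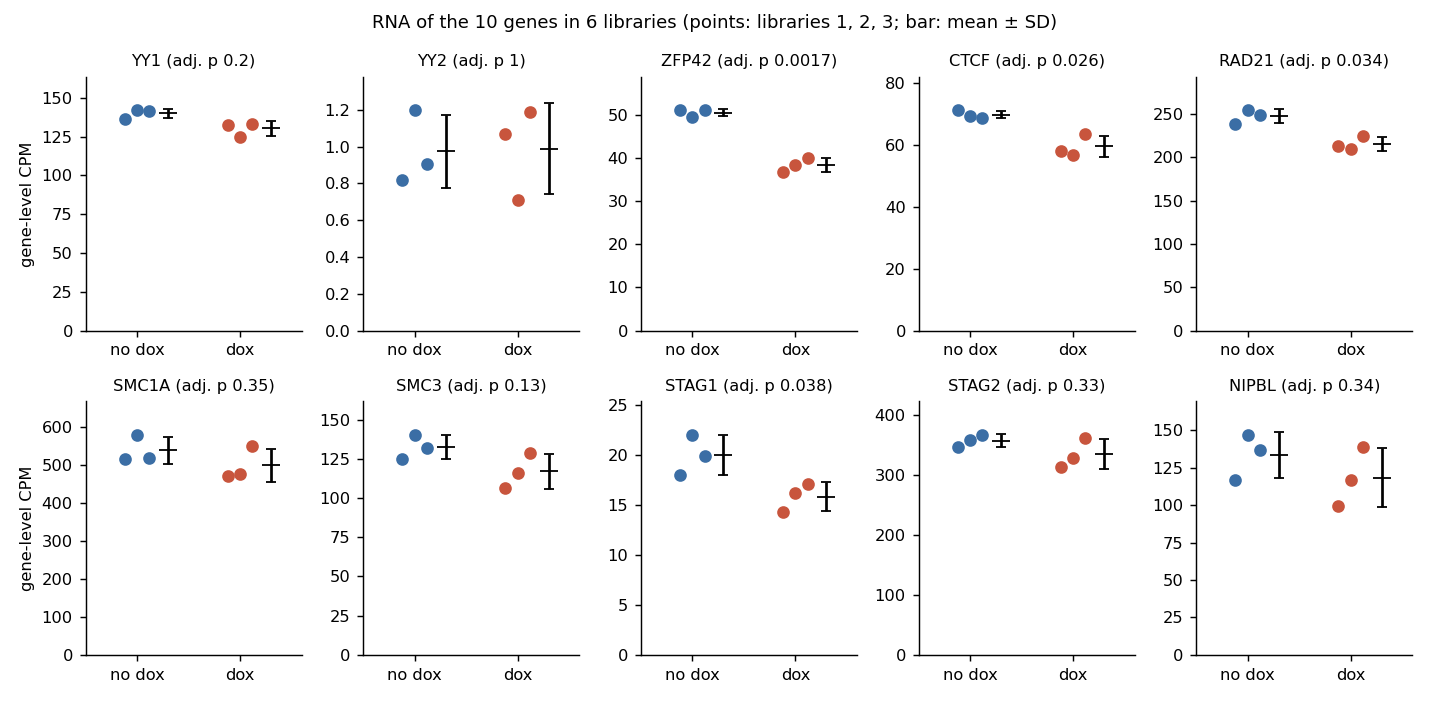
CPM of each of the 10 genes in the 6 RNA libraries (points, in the order of libraries 1, 2 and 3), without doxycycline (blue) and with doxycycline (red), with the mean and SD beside them and the adjusted p of the edgeR test above each panel. Each y axis starts at 0 and has its own range. The conditions are apart for YY1, ZFP42, CTCF, RAD21 and STAG1.

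ZFP42 (chr4:188916925-188926200, plus strand) measured 51.0, 49.5 and 51.1 CPM without doxycycline and 36.7, 38.3 and 40.1 CPM with it. Every treated library was below every untreated one, and the spread within a condition was small beside the gap. The log2 fold change was -0.40 ± 0.055 (SE), or 0.760 times the untreated level, with an adjusted p of 0.0017 by edgeR. This call held in all 13 alternatives, with adjusted p-values between 1.62e-06 and 0.0146.

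YY1 measured 136, 142 and 141 CPM without doxycycline and 132, 125 and 133 CPM with it. The treated libraries were all below the untreated ones, by a small margin. The log2 fold change of -0.10 ± 0.052 did not pass the test (adjusted p = 0.20, edgeR), nor in any of the 13 alternatives, where the adjusted p ran from 0.158 to 0.465. By Pearson correlation of log2 CPM over the 6 libraries, the genes most like YY1 were ESF1 (r = 0.985), PLEKHA6 (r = 0.984) and CCDC126 (r = 0.983). This is a description over 6 points that share 2 conditions.

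YY2 (chrX:21874105-21876858, plus strand) has a single annotated transcript and lies within MBTPS2, the gene of a membrane-bound protease. Its level was near the limit of detection, with 0.818, 1.20 and 0.906 CPM without doxycycline and 1.07, 0.712 and 1.19 CPM with it. The conditions overlapped fully, the log2 fold change was -0.0014 ± 0.26, and its sign changed in 6 of the 13 alternatives. Of the 2673 words of 31 bases in the YY2 transcript, 1065 also occur in transcripts of MBTPS2, and the estimated counts of the pair are uncertain for that reason. MBTPS2 measured 15.7, 19.1 and 18.1 CPM without doxycycline and 13.6, 15.3 and 15.3 CPM with it. Its log2 fold change of -0.27 ± 0.090 had an adjusted p of 0.067 in edgeR. No 31-base word was shared between YY1, YY2 and ZFP42.

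CTCF (chr16:67596370-67673080, plus strand) measured 71.3, 69.5 and 68.9 CPM without doxycycline and 58.2, 56.9 and 63.6 CPM with it. The conditions did not overlap. The log2 fold change was -0.23 ± 0.058, with an adjusted p of 0.026 by edgeR. The call was lost when no doxycycline replicate 2 or 3 or doxycycline replicate 1 or 2 was left out (adjusted p between 0.070 and 0.105), with the log2 fold change between -0.24 and -0.20. It held without either of the other 2 libraries (adjusted p = 0.046 and 0.016, edgeR). Over all CTCF transcripts, 20.3% of the 31-base words also occur in transcripts of other genes, though none of those of CTCF-201 do.

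RAD21, the subunit that closes the cohesin ring (chr8:117858173-117887015, minus strand), measured 239, 254 and 249 CPM without doxycycline and 213, 209 and 225 CPM with it. Again no treated library reached an untreated one. The log2 fold change was -0.20 ± 0.054 with an adjusted p of 0.034 by edgeR. Without any one of the same 4 libraries the adjusted p was 0.105 to 0.126. Counts scaled by transcript length gave 0.054.

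SMC3 (chr10:112327442-112365806, plus strand) and SMC1A (chrX:53401070-53449677, minus strand) form the arms of the ring. SMC3 measured 125, 140.4 and 132 CPM without doxycycline and 107, 116 and 128 CPM with it. The third treated library was within the untreated range, and the log2 fold change of -0.18 ± 0.076 had an adjusted p of 0.13 in edgeR. Without that library the adjusted p was 0.049. SMC1A measured 517, 581 and 519 CPM without doxycycline and 470.2, 477 and 550.5 CPM with it. The ranges overlapped through the third treated library, and the log2 fold change of -0.11 ± 0.076 had an adjusted p of 0.35 in edgeR.

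STAG1 (chr3:136055078-136471245, minus strand) and STAG2 (chrX:123094062-123556514, plus strand) encode the alternative STAG subunits. STAG1 measured 18.0, 22.0 and 19.9 CPM without doxycycline and 14.3, 16.2 and 17.1 CPM with it. The conditions were apart, though by less than the spread among the untreated libraries. The log2 fold change was -0.34 ± 0.096 with an adjusted p of 0.038 by edgeR. The call was lost without any one of the 4 libraries named for CTCF (adjusted p of 0.095 to 0.143) and with length-scaled counts (adjusted p = 0.197, edgeR). Part of the STAG1 transcripts is shared with PCCB, since 27.0% of the 31-base words of STAG1-202 also occur there, and whether strand was used in the counting is not given in the sources used here. STAG2 measured 346, 358 and 367 CPM without doxycycline and 314, 327 and 362 CPM with it. Its log2 fold change of -0.10 ± 0.063 had an adjusted p of 0.33 in edgeR.

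NIPBL (chr5:36876871-37066515, plus strand), which loads cohesin, measured 116, 147 and 136 CPM without doxycycline and 99.1, 117 and 138 CPM with it. The ranges overlapped, and the log2 fold change of -0.18 ± 0.12 had an adjusted p of 0.34 in edgeR.

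The third library with doxycycline was the highest of the treated libraries for all 10 genes. Among all genes tested it was the highest treated library for 36.7%. For YY2, SMC1A, SMC3, STAG2 and NIPBL it lay within the untreated range. What sets this library apart was not tested.

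**Figure D2:**
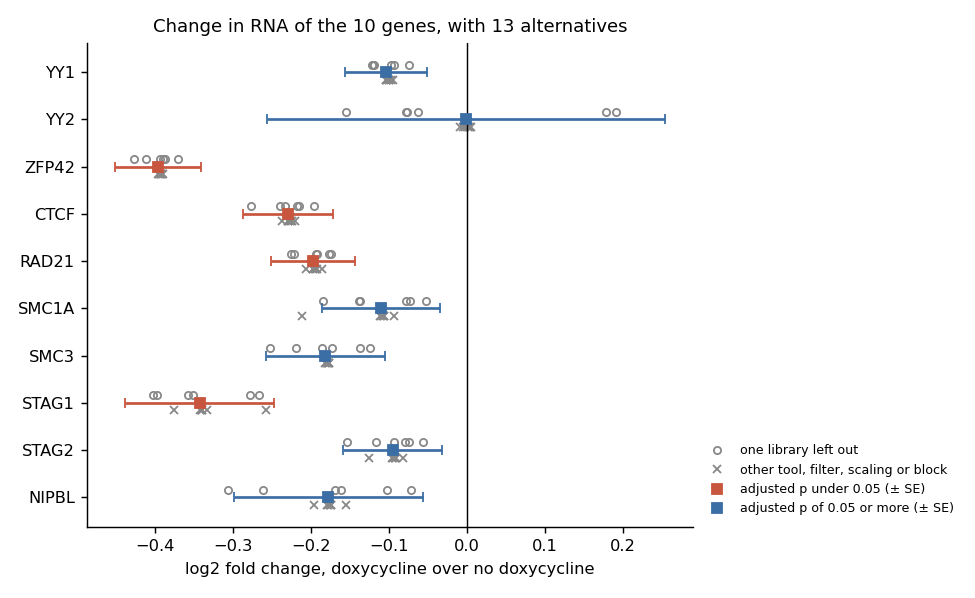
Log2 fold change (doxycycline over no doxycycline) of the 10 genes with its SE, red where the adjusted p was under 0.05, beside the values from 13 alternatives per gene (circles, 1 library left out; crosses, another tool, filter, scaling or block). The values of ZFP42 stay between -0.43 and -0.37, and those of YY2 lie on both sides of 0.

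The members had 81 transcripts in the files, of which 44 were tested one by one. A single one, SMC1A-202, passed the adjusted p of 0.05 in edgeR, where 0.661% of all 66421 transcripts tested did. SMC1A-202 measured 28.8, 24.9 and 24.0 CPM without doxycycline and 15.6, 16.8 and 14.9 CPM with it. The treated libraries were all lower, and the log2 fold change was -0.71 ± 0.10 with an adjusted p of 0.048. The call stood at the threshold, and in none of the 9 alternatives did it pass (adjusted p of 0.0516 to 0.257, edgeR). SMC1A-201, which carries 87.1 to 91.6% of the estimated counts of the gene, had a log2 fold change of -0.07 ± 0.080.

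ZFP42 had 2 transcripts above the filter, which share a start site. ZFP42-201 measured 16.4, 16.6 and 13.7 CPM without doxycycline and 8.94, 8.69 and 9.47 CPM with it. ZFP42-202 measured 34.2, 33.3 and 37.7 CPM without doxycycline and 28.2, 30.2 and 30.2 CPM with it. Both were lower in every treated library. The log2 fold changes were -0.78 ± 0.11 and -0.25 ± 0.074, with adjusted p-values of 0.052 and 0.26 by edgeR, so neither passed. ZFP42-202 held 69.2, 68.3 and 74.7% of the TPM of the gene without doxycycline and 77.2, 78.8 and 77.4% with it. This difference of 7.06 percentage points gave p = 0.10 in the exact permutation test (two-sided), the smallest that 3 libraries against 3 allow.

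For the other members the share of the most abundant transcript in the TPM of the gene overlapped between conditions, save SMC3-201, which held all of it without doxycycline and 99.8% with it. CTCF-201 held 77.2 to 83.8% without doxycycline and 69.4 to 79.7% with it (p = 0.20, exact permutation test). NIPBL-202 held 40.1 to 45.6% and 28.9 to 45.7% (p = 0.40, exact permutation test). YY1-201 held 52.2 to 57.2% and 53.1 to 55.9%. How reads are split among transcripts is an estimate whose uncertainty the files do not give.

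YY1 peaks stood at the promoters of 9 of the 10 genes, all but YY2, in each of the 4 YY1 libraries. A promoter was taken as 1000 bp on either side of an annotated start site. Of all expressed protein-coding genes, 74.7 and 72.1% had such a peak in the libraries without doxycycline, and 79.3 and 81.0% in those with it. A count of 9 of 10 is thus near the background. The height of the peaks was what differed among the members. Fold enrichment is the signal at the summit over the background of the peak caller.

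The peak at YY1 itself had fold enrichments of 122 and 109 without doxycycline and 123 and 111 with it. It was the 35th strongest of 56370 peaks, the 67th of 76098, the 18th of 82005 and the 59th of 115673 in these libraries. The median over expressed promoters with a peak was 8.19, 8.49, 8.85 and 9.52.

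SMC3 had fold enrichments of 68.8 and 75.6 without doxycycline and 74.8 and 95.5 with it, with the summit within 3 bp of a start site in each library. STAG2 had 98.3 and 54.0 without doxycycline and 88.9 and 67.3 with it. CTCF had 57.9 and 43.1 without doxycycline and 67.0 and 56.1 with it. At these 3 genes the peak was above 89.8% of all promoter peaks in every library.

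RAD21 had 50.9 and 49.8 without doxycycline and 57.1 and 60.9 with it, and its summit lay within 23 bp of the start. STAG1 had 49.0 and 23.3 without doxycycline and 48.5 and 30.8 with it. The STAG1 peak covered more than one summit. In the first library of each condition the strongest was 241 and 221 bp downstream of the nearest start, and in the second it was upstream, at -345 and -314 bp.

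NIPBL had 23.4 and 16.7 without doxycycline and 28.3 and 23.7 with it. ZFP42 had 11.8 and 16.2 without doxycycline and 14.4 and 17.1 with it, at a summit 1130 to 1209 bp downstream of its start in intron 1. SMC1A, whose RNA was the highest of the 10, had the weakest peak, with 5.71 and 3.67 without doxycycline and 5.45 and 4.91 with it. It was below the median of promoter peaks in each library, higher than 4.85 to 33.2% of them.

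**Figure D3:**
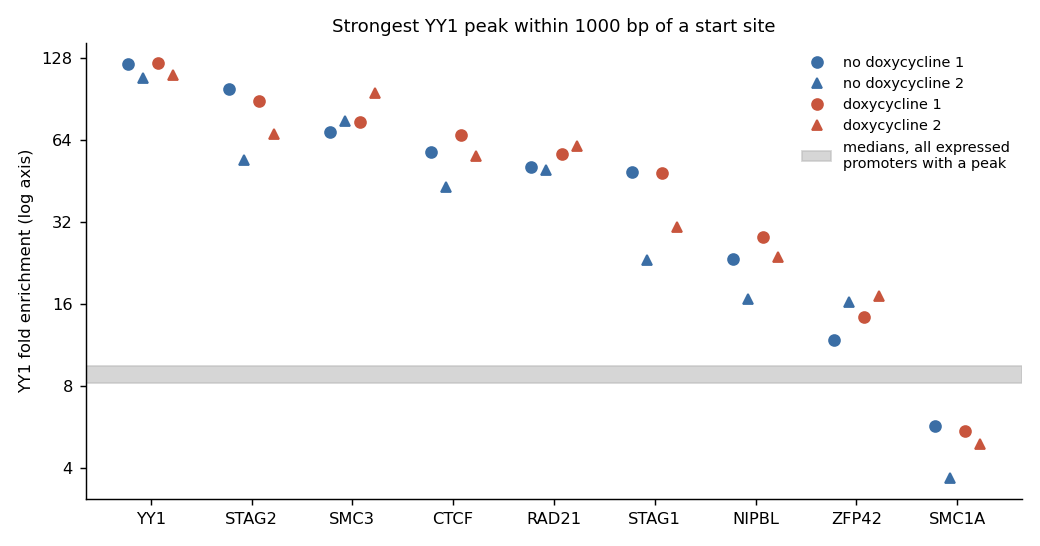
Fold enrichment (log axis) of the strongest YY1 peak within 1000 bp of a start site of 9 genes, in 2 libraries without doxycycline (blue) and 2 with it (red); circles are replicate 1 and triangles replicate 2. The grey band spans the medians of all expressed promoters with a peak in the 4 libraries, 8.19 to 9.52, and SMC1A alone lies under it.

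Between conditions, the YY1 peaks overlapped in fold enrichment at 7 of the 9 promoters. On the log2 scale the mean fold enrichment with doxycycline was above that without it at all 9 promoters, by 0.02 at YY1 to 0.39 at NIPBL. The exact permutation tests gave p-values of 0.33 to 1.0, and 2 libraries against 2 cannot go below 0.33. Leaving out 1 library turned the sign at YY1, ZFP42, SMC1A, STAG1 and STAG2. The libraries did not overlap at RAD21 and NIPBL, 2 of 9, both higher with doxycycline. Over the 9986 expressed protein-coding genes with a peak in all 4 libraries, 40.8% were higher without overlap and 3.08% lower, and the median difference was 0.27. The treated libraries had more peaks, 82005 and 115673 against 56370 and 76098.

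OCT4, a pluripotency factor, had peaks at 8 of the 10 promoters without doxycycline, all but STAG2 and YY2, where 49.1% of expressed promoters had one. With doxycycline 1 of 10 promoters, that of SMC3, had a peak, and so did 9.86% of expressed promoters. The lists held 50775 and 23352 peaks, each from 1 library, so there was no replicate check. The fold enrichments of the strongest peak at each of the 8 lay between 3.19 at CTCF and 7.90 at SMC3. That of SMC3 with doxycycline was 4.12. At RAD21 the strongest OCT4 peak lay at an annotated start inside the gene and not at the start of RAD21-201. H3K9me3, a mark of repressed chromatin, had no peak at the 10 promoters in NCCITs. Without doxycycline it had 1 (STAG2) in the first library and 2 (RAD21 and STAG1) in the second, and with doxycycline 0 and 1 (RAD21). The STAG2 and STAG1 peaks lay at annotated starts inside these genes, chrX:123227325 and chr3:136192445. They were not at the starts of STAG2-204 (chrX:123095568) and STAG1-202 (chr3:136471220), near which the YY1 summits lay. Of expressed promoters 8.39 to 13.8% carried such a peak in the 5 libraries. No H3K9me3 peak within 1000 bp of a member's start was present in both libraries of one condition. Within 2000 bp, RAD21 had one in both libraries with doxycycline, and in the second without it.

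Upstream of ZFP42, H3K9me3 stood outside the promoter window. Between 3 and 7 kb upstream every H3K9me3 library had a peak, the strongest at 3.67 in NCCITs, 6.36 and 5.59 in SCi-NCCITs without doxycycline, and 9.63 and 8.26 with it. Those with doxycycline were the highest, a difference that was not tested. This upstream window was read for ZFP42 alone, so no share over other genes can be set beside it. The median fold enrichment over all H3K9me3 peaks was 4.04 in NCCITs, 4.37 and 4.35 without doxycycline, and 4.77 and 4.40 with it. In the 10 kb upstream, H3K9me3 peaks covered 851 bp in NCCITs, 2927 and 805 bp without doxycycline, and 3230 and 2585 bp with it, so that the covered length overlapped between conditions. OCT4 had 2 peaks in these 10 kb without doxycycline, the stronger at 7.07, and none with it. The YY1 peak in intron 1 of ZFP42, described above, was present in all 4 libraries. Whether the fall in ZFP42 RNA is tied to these peaks was not tested.

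**Figure D4:**
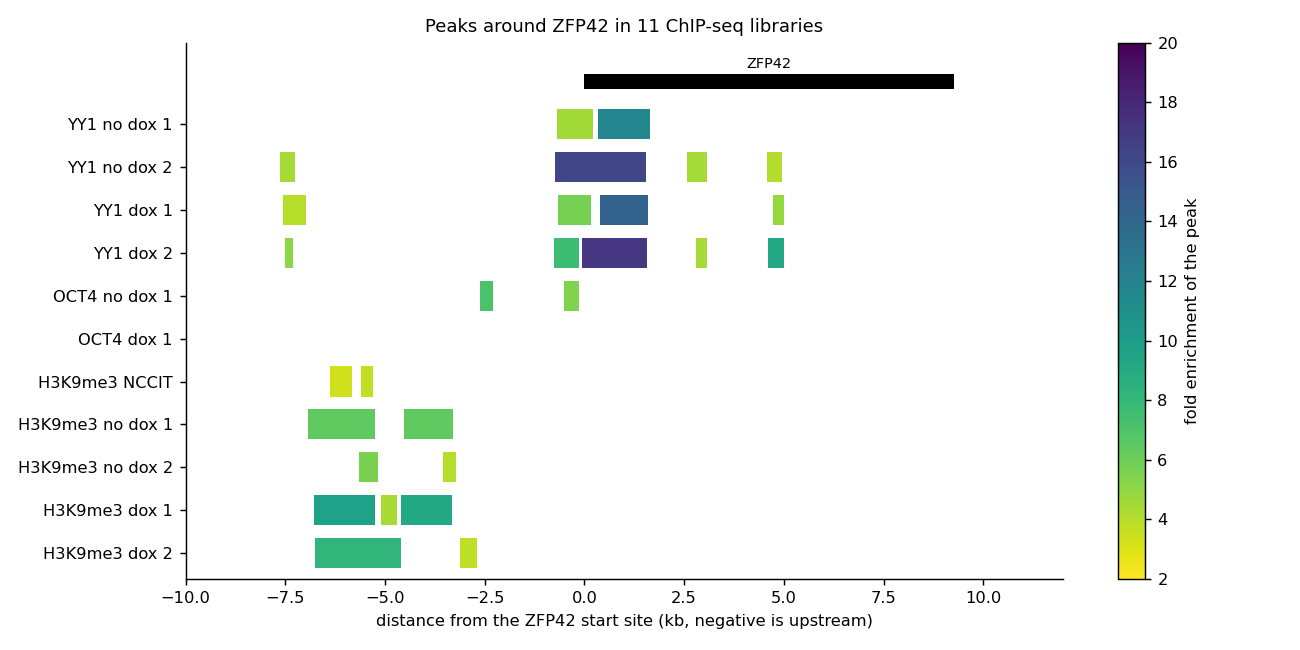
Peaks from 10 kb upstream to 12 kb downstream of the ZFP42 start site (x axis, kb) in the 11 ChIP-seq libraries (rows), coloured by fold enrichment, with the gene as a black bar. YY1 peaks stand at the start in all 4 libraries, OCT4 peaks appear without doxycycline only, and the H3K9me3 peaks 3 to 7 kb upstream reach 9.63 and 8.26 with doxycycline.

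Other genes of these pathways were read from the same fit, in which 17.5% of all genes tested were called. Of all genes tested, 8.48% were called lower and 8.97% higher, and the counts per list below stand beside these shares. Of 11 regulators of cohesin, 2 fell and 1 rose, and the median log2 fold change of the list was -0.0060. ESCO1, which acetylates SMC3, fell by 0.36 on the log2 scale (SE 0.084, adjusted p = 0.019 by edgeR). PDS5B, which binds the ring together with WAPL, fell by 0.29 (SE 0.076, adjusted p = 0.030 by edgeR). PTTG1, the securin that inhibits separase, rose by 0.31 (SE 0.073, adjusted p = 0.019 by edgeR). The calls of all 3 were lost in some of the alternatives, and the adjusted p went up to 0.085, 0.201 and 0.083.

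Of 8 condensin subunits 1 fell and none rose, and all 8 fitted changes were below 0 with a median of -0.10. Among all 16371 genes tested, 8249 had a change below 0. NCAPG2, a subunit of condensin II, measured 119, 118 and 114 CPM without doxycycline and 87.0, 88.1 and 94.2 CPM with it. No treated library reached an untreated one. The log2 fold change was -0.38 ± 0.054 with an adjusted p of 0.0019 by edgeR, and the call held in all 13 alternatives. Of the 5 tested genes of the SMC5/6 complex, the 4 tested germline paralogs of cohesin and CTCF, and 5 other factors linked to looping, none was called. Their median log2 fold changes were -0.12, 0.06 and 0.01.

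The 16 partners of YY1 were subunits of the INO80 remodeller and the factors RYBP and YAF2. Among them 2 fell and 1 rose, with a median of 0.07. That is near the share of 17.5% called among all genes tested. RYBP, which joins YY1 to Polycomb proteins, measured 104, 114 and 106 CPM without doxycycline and 85.4, 80.2 and 84.8 CPM with it. The conditions were apart, and the log2 fold change of -0.37 ± 0.058 (adjusted p = 0.0029, edgeR) passed in all 13 alternatives. INO80, the ATPase of the remodeller, fell by 0.33 (SE 0.084, adjusted p = 0.026 by edgeR), and INO80C rose by 0.36 (SE 0.078, adjusted p = 0.014 by edgeR). Both calls were lost in 2 or 3 alternatives that left out 1 library.

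**Figure D5:**
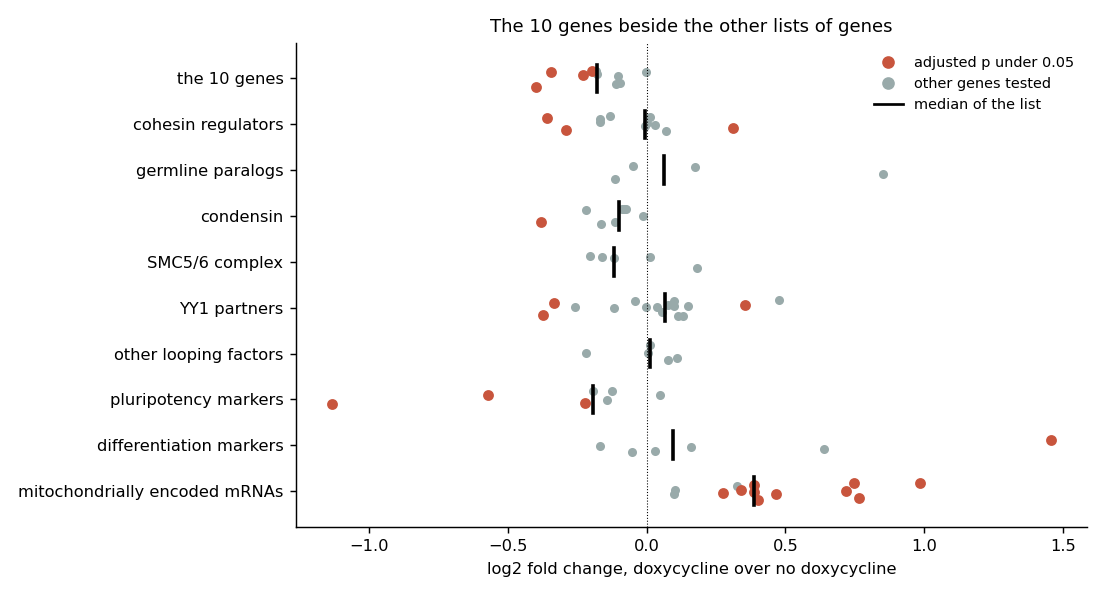
Log2 fold change (doxycycline over no doxycycline) of each tested gene in 10 lists, red where the adjusted p was under 0.05, with the median of each list as a black line. The medians of the 10 genes (-0.18) and of the pluripotency markers (-0.19) lie below 0, and that of the mitochondrially encoded mRNAs (0.39) above.

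The identity of the cells was checked on markers. All 7 pluripotency markers were present, with means of 61.5 CPM for NANOG to 834 CPM for LIN28A without doxycycline. Of these, 3 fell and none rose, with a list median of -0.19. TDGF1, a co-receptor of Nodal, fell by 1.13 on the log2 scale (SE 0.065, adjusted p = 8.32e-06 by edgeR), NANOG fell by 0.57 (SE 0.052, adjusted p = 0.00014 by edgeR) and SALL4 fell by 0.22 (SE 0.064, adjusted p = 0.042 by edgeR). The SALL4 call was lost in 7 of 13 alternatives. The summed level of the 7 was 2217 to 2402 CPM without doxycycline and 1906 to 2146 CPM with it. The conditions did not overlap, and the part of this shift in the change of ZFP42 was not tested.

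Of 9 markers of differentiated cells, SOX17, TBXT and SOX1 were too low to be tested, with at most 17 counts in a library, while HAND1 and COL3A1 were present at 146 and 214 CPM without doxycycline. GATA6 rose by 1.46 (SE 0.21, adjusted p = 0.0019 by edgeR) from 0.963 to 2.60 CPM, and no marker of this list fell. The summed level of the 9 was 342 to 440.4 CPM without doxycycline and 328 to 373 CPM with it, and so overlapped. The mitochondrially encoded mRNAs took 3.54 to 4.38% of assigned counts without doxycycline and 4.69 to 5.41% with it, and 10 of 13 rose. This shift ran beside the lower values of the members, and its part in them was not tested.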

How the data were processed

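Per the labels and the study's methods, the authors made poly(A) RNA-seq and ChIP-seq libraries, trimmed reads with TrimGalore!, aligned those of ChIP-seq by BWA MEM (genome hg19), dropped duplicates and required a mapping quality over 10. They called peaks per library at a 5% FDR; the caller is not given in the sources used here. The deposited peak lists give fold enrichment as a ratio and p- and q-values as −log10. The authors deposited estimated counts and TPM per transcript from kallisto, without further normalization.

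From these files, 166506 of 188753 transcripts (88.2%) were assigned to genes of GENCODE v44lift37. Estimated counts were summed per gene, rounded and tested across conditions (edgeR 4.0.16 under R 4.3.3: quasi-likelihood test after filterByExpr and TMM, Benjamini-Hochberg over all genes or transcripts tested, threshold 0.05), with DESeq2 1.42.0 as an alternative. Fold changes are log2 and are given with the SE. Counts were simulated for these 6 libraries with genes changed by 1 on the log2 scale. On them edgeR recovered 85.3% of 197 changed genes, and 4% of its calls were false. Smaller changes, such as those fitted for the members, were not simulated. Chi-square values of 7.29 to 14.6 per gene between RNA libraries of a condition showed none of them deposited more than once within its condition. RNA libraries of different conditions and ChIP-seq libraries were not compared in this way. The lists give no ChIP-seq depth.

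Promoter peaks were those within 1000 bp of an annotated start site, shares of transcripts and YY1 peaks were compared with two-sided exact permutation tests over libraries, and sequences were read from hg19 (GRCh37). Shared 31-base words were counted over all transcripts. Alternatives were another tool, scaling, filters, a replicate block, length-scaled counts, protein-coding transcripts only, other promoter distances and peak thresholds, and leaving out each library. Named genes were all 10 members, called genes of each list (at most 5 by adjusted p), MBTPS2, and the 3 genes most correlated with YY1. Members and lists were chosen with earlier results of these data known. A table of YY1 HiChIP contacts was not used here, since its columns could not be given to conditions. One site is not reported here. Python 3.11.15, numpy 2.4.6, pandas 2.3.3, scipy 1.17.1 and matplotlib 3.10.9 were used.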

Additional observations from a re-analysis of the deposited data

How the results depend on the processing

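ZFP42, NCAPG2, RYBP and the pluripotency markers TDGF1 and NANOG were called lower in the main edgeR test and in all 13 alternatives. The number of members called, 4, was 2 with length-scaled counts and 1 to 5 when 1 library was left out. The count of genes called, 2858, was 1901 with length-scaled counts and 1396 to 3259 with a library left out. That of transcripts, 439, was 33 to 70 with a library left out, so single transcript calls are weak. Same-numbered RNA libraries deviated together weakly at most (r = 0.13, 0.080 and -0.00094), and other pairs gave r of -0.13 to 0.060. With values this close, whether the numbers pair the samples cannot be told, and the main test took no pairing. A replicate block gave 3316 genes and 13 transcripts. By TPM, the members whose main transcript share did not overlap between conditions were 2 (ZFP42 and SMC3), and 2 to 6 with a library left out. By estimated counts they were 3, with SMC1A. The share of all genes that were apart in this way was not computed, so these counts have no background beside them. YY2 changed sign with no filter (0.0013), DESeq2 (0.0054), length-scaled counts (0.0020), protein-coding transcripts only (0.0040), without no doxycycline replicate 2 (0.18) and without doxycycline replicate 2 (0.19), and SMC1A-201 without no doxycycline replicate 2 (0.0081), all uncalled; with a library left out they ran from -0.15 to 0.19 and from -0.11 to 0.0081. A YY1 peak stood at 9 promoters under every distance, threshold and left-out library tried. Where a change is lost, the cause was not tested. The first library without doxycycline has the lowest depth, and the peak lists give no depth, so an absent peak may be one not detected.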
